A study of Mus musculus with 6 samples.

Results

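The Schlafen genes are a family of interferon-responsive genes, of which 7 (Slfn1, Slfn2, Slfn3, Slfn4, Slfn5, Slfn8 and Slfn9) are described here. They were taken by symbol from a table of 25124 genes, and all 7 symbols were present. The 6 samples, 3 in each of 2 groups, are poly(A) RNA-seq libraries of RAW264.7, a macrophage line of the mouse. M1 cells were treated with 100 ng/ml LPS, the lipopolysaccharide of Gram-negative bacteria that Toll-like receptor 4 senses, together with 50 ng/ml interferon-γ. M0 cells received neither, and the duration was not given in the sources used here. All 6 samples came from a control line for a knockout of E4BP4, made with a plasmid that carries Cas9 but no guide RNA, and grown in medium with 25 mM glucose. Whether this line was a single clone, or the replicates separate cultures, is not stated, so p-values measure only how these samples scatter, and that scatter may be technical.

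Schlafen proteins take their name from the German word for sleeping, because the first member was found to halt the growth of T cells. Mouse members fall into short proteins (Slfn1 and Slfn2), intermediate ones (Slfn3 and Slfn4) and long ones with a helicase-like part (Slfn5, Slfn8 and Slfn9). All share an N-terminal core related to nucleases, and several family members bind or cleave transfer RNA. In macrophages the family is known to respond to type I interferon and to LPS.

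The 7 genes lie in 1 cluster on chromosome 11 (chr11:82952102-83215154, mm10), which spans 263 kb. Slfn1, Slfn2, Slfn3, Slfn4 and Slfn5 are on the plus strand and Slfn8 and Slfn9 on the minus strand. The 250 bases before each transcript start were searched for short sequence motifs (RefSeq promoters, GRCm38.p6, all 7 genes matched). The motifs were chosen after the sequences had been seen. The interferon-stimulated response element, searched on both strands as a pair of GAAA with any 2 bases between them, was found in the 3 long members and in 2.98% of all 32851 promoters. It is shown in capitals below, each sequence 5′ to 3′ on the strand of its gene, so that similar and different surroundings can be compared.
Slfn5: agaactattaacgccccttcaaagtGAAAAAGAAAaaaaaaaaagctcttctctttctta
Slfn8: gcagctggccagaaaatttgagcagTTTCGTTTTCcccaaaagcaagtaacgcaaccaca
Slfn9: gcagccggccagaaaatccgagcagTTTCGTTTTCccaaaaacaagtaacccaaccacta
The Slfn5 stretch is chr11:82951922-82951981 on the plus strand. The Slfn8 stretch is chr11:83020824-83020883 and the Slfn9 stretch chr11:82991841-82991900, both on the minus strand. The match ended 146 bases before the start of Slfn5 and 36 before that of Slfn9. For Slfn8 it ended 127 bases before the start used in the TPM table and 39 before a second RefSeq start further upstream. The window before that second start is 80.0% identical to the window of Slfn9, so these 2 matches are not independent. The Slfn5 match runs into a stretch of A.

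The other 4 genes had no match to that element in this window and instead shared the letters ACTTCCTGG, the reverse complement of CCAGGAAGT, which holds the GGAA core bound by ETS factors such as the macrophage factor PU.1. On either strand these letters occurred in 0.70% of all promoters and in Slfn1, Slfn2, Slfn3 and Slfn4, but not in the 3 long members. The letters were chosen after these sequences had been seen, so their presence in the 4 genes is no test against that share. Whether the 4 matches are independent was not tested. The letters stand in capitals.
Slfn1: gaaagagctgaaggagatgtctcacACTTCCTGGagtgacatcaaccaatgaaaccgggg
Slfn2: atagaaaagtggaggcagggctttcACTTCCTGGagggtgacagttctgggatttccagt
Slfn3: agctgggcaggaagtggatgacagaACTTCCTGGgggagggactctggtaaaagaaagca
Slfn4: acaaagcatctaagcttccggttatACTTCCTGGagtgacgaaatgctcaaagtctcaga
All 4 stretches are on the plus strand, at chr11:83116721-83116780 for Slfn1, chr11:83065032-83065091 for Slfn2, chr11:83191263-83191322 for Slfn3 and chr11:83175088-83175147 for Slfn4. The letters ended 66, 47, 34 and 65 bases before the start of Slfn1, Slfn2, Slfn3 and Slfn4. Slfn1 and Slfn4 shared 15 bases there without a mismatch (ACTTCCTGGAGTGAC). An NF-κB element, searched on both strands as GGGAA and CC with any 3 bases between them, was in Slfn9 alone and in 4.94% of all promoters. These matches describe the letters and do not show binding.

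Levels are given as TPM, which is per transcript length and per library, and rest on 15615639 to 20283180 reads in genes per library. All 6 macrophage markers were detected, with a summed level of 2182 to 2404 TPM in M0 and 1802 to 1842 in M1. Within that list Adgre1 went from 2.73 to 67.6 TPM and Spi1 from 201 to 305 TPM in mean level, while the means of the other 4 were lower in M1. The 15 markers of T cells, B cells, fibroblasts and epithelial cells summed to 0.267 to 0.673 TPM in M0 and 0.071 to 0.322 in M1, with 6 of them at 0 throughout. In such bulk samples fewer expressing cells and less RNA per cell cannot be told apart. M1 replicate 3 differed from the other M1 samples by transcript length: its median log2 difference from them was 0.10 for transcripts of at least 3000 bases and -0.04 for those under 2000. For the longer transcripts M0 replicates 1 and 2 stood at -0.084 and 0.075 from the other M0 samples.

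All 7 Schlafen genes passed the expression filter (at least 1 TPM in 3 or more samples) and all 7 rose in M1. Slfn1 and Slfn5 passed it only through the M1 samples, where they are high. The test was limma on log2(TPM + 1), with Benjamini-Hochberg adjustment over 11297 genes. By it, 18.7% of all tested genes were higher, and 1.43% were higher with a log2 change of at least 3, as were 5 of the 7 members. With a log2 change of at least 1 the shares were 6.48% of all and 6 of the 7 members. Leaving out Slfn1 and Slfn5, which had to differ to be tested, 3 of 5 members had a change of at least 3 and 4 of 5 one of at least 1. The shares of all tested genes still include genes that passed the filter through a single group. Every M1 sample lay above every M0 sample for each member, as it did for 19.6% of all tested genes. The median fitted log2 change of the 7 was 3.59, or 3.82 with Slfn1 placed at its lower bound, against -0.31 over all tested genes.

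**Figure D1:**
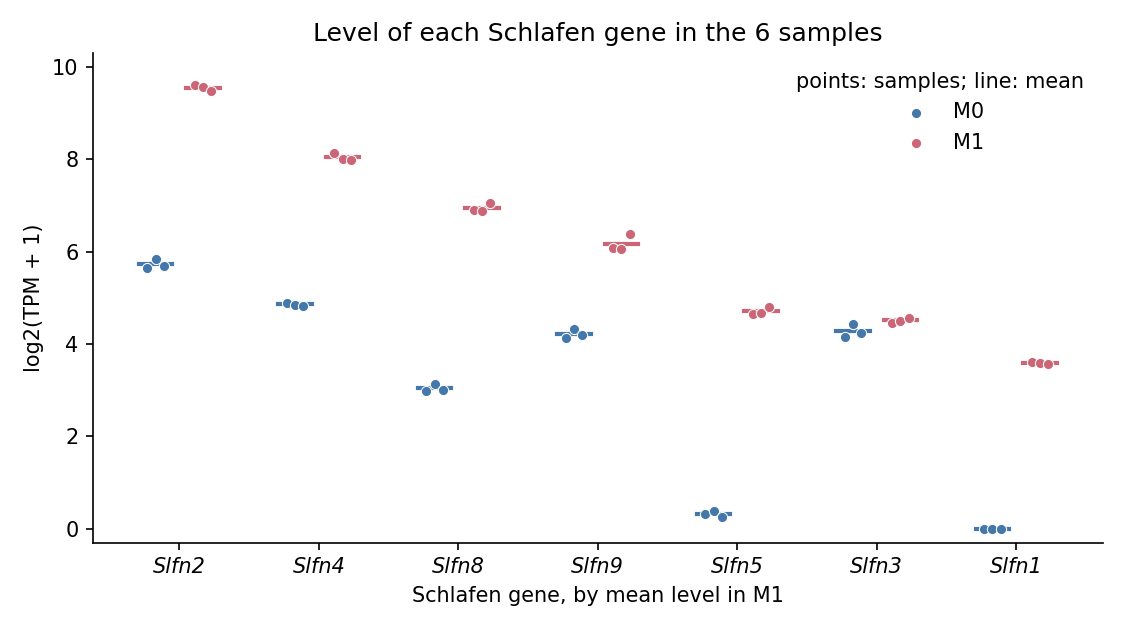
Level of each Schlafen gene as log2(TPM + 1) in the 3 M0 and 3 M1 samples; points are samples and lines are group means. Every M1 point lies above every M0 point of its gene, with the smallest gap at Slfn3, and Slfn1 is at 0 in the 3 M0 samples.

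Of the short members, Slfn2, which is required for quiescence of T cells and monocytes and guards transfer RNA from the ribonuclease angiogenin, had the highest level of the 7 in both groups. Its level was 48.9, 56.6 and 50.2 TPM in M0 replicates 1 to 3 and 773, 753 and 714 TPM in M1 replicates 1 to 3. The groups lay far apart. Slfn2 (NM_011408, chr11:83065112-83070678, 2 exons) thus rose 14.4-fold, from 51.9 ± 4.112 to 747 ± 30.3 TPM (mean ± SD, n = 3 here and below), or by 3.82 on the fitted log2 scale (SE 0.06, limma adjusted p = 2.9e-13).

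Slfn1, the founding member, which halts T cell growth when forced on, was not detected in M0. It had 0 reads in each of the 3 M0 libraries and 11.2, 11.1 and 10.8 TPM in the M1 libraries, from 354, 361 and 311 reads. The M1 samples were close together, and Slfn1 had the lowest level of the 7 in both groups. Taking 3 reads per library as the limit that a count of 0 allows (0.109 TPM, counting error only), Slfn1 (NM_011407, chr11:83116820-83122670, 2 exons) was at least 101-fold higher in M1. Its fitted log2 change depends on the pseudocount, at 3.59 with 1 and 6.80 with 0.1 (limma adjusted p = 3.3e-09 with 1 and no expression filter).

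The intermediate members Slfn4 and Slfn3 lie 1113 bases apart on the same strand and behaved differently. Slfn4, a gene of myeloid cells, had 28.7, 27.8 and 27.4 TPM in the M0 samples and 281, 258 and 254 TPM in the M1 samples. It was the second highest member in both groups and rose 9.44-fold, from 28.0 ± 0.66 to 264 ± 14.5 TPM (log2 change 3.19, SE 0.05, limma adjusted p = 3.2e-13). Slfn4 is NM_001302559 (chr11:83175186-83190216, 7 exons).

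Slfn3 (NM_011409, chr11:83191330-83215154, 3 exons), best known from intestinal epithelium, had 16.8, 20.6 and 17.8 TPM in M0 and 21.1, 21.6 and 22.8 TPM in M1. The groups did not overlap, but M0 replicate 2 came within 0.438 TPM of the lowest M1 sample. Slfn3 rose 1.18-fold, from 18.4 ± 1.96 to 21.8 ± 0.885 TPM, a log2 change of 0.24 (95% confidence interval 0.07 to 0.40, limma adjusted p = 0.011). Leaving out M0 replicate 1 brought this to 0.18 (adjusted p = 0.046). After rescaling of each library by its median of ratios, which moves the median change over all genes from -0.31 to 0.00, the log2 change of Slfn3 was 0.57 (limma adjusted p = 2.2e-05).

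The ratio of Slfn4 to Slfn3 within a library, which no scaling of the library can change, went from 1.53 ± 0.179 in M0 to 12.1 ± 1.11 in M1. It was 1.35 to 1.70 in the M0 samples and 11.1 to 13.3 in the M1 samples, so the groups were separate. With 3 samples against 3, a two-sided exact permutation test cannot go below p = 0.10, and it gave that value. In GENCODE transcripts, 14.3% of the 50-base stretches of Slfn3 also occur in Slfn4, and 6.90% of those of Slfn4 in Slfn3. Over all other genes, 23.7% of the Slfn3 stretches occur elsewhere. Read length and the treatment of reads that fit several places were not given in the sources used here. Slfn4 had 50393 reads over the M1 libraries and Slfn3 1944, against 4782 and 1474 in M0. The shares of stretches therefore do not bound how far Slfn4 reads could move the Slfn3 level. Their part in the rise of Slfn3 was not tested.

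Of the long members, Slfn5 had the largest fitted change of the 7 at a pseudocount of 1 (with 0.1 it came to 6.21, behind the 6.80 of Slfn1). Human SLFN5 is known to restrain interferon-stimulated transcription. Slfn5 had 0.244, 0.298 and 0.189 TPM in M0, from 23, 27 and 15 reads, and 24.1, 24.6 and 26.97 TPM in M1. Between M0 and M1 it passed Slfn3 in the order of levels. The ratio of means was 103-fold, from 0.244 ± 0.0545 to 25.2 ± 1.54 TPM, and the fitted log2 change, which understates changes near 0, was 4.40 (SE 0.08, limma adjusted p = 2.4e-09 with no expression filter). Slfn5 is NM_183201 (chr11:82952102-82964850, 6 exons). The authors' deposited table puts Slfn5 at a log2 fold change of 7.04, below the 11.06 it gives for Slfn1.

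Slfn8 and Slfn9 are neighbours on the minus strand whose 250-base windows, for Slfn8 before its upstream start, are 80.0% identical, and both carry the same response element letters. Slfn8 (NM_001167743, chr11:83002158-83020722, 4 exons) had 6.92, 7.81 and 7.07 TPM in M0 and 118, 117 and 133 TPM in M1. It rose 16.9-fold, from 7.26 ± 0.477 to 123 ± 8.70 TPM (log2 change 3.90, SE 0.06, limma adjusted p = 5.1e-13). Slfn9 (NM_172796, chr11:82980303-82991830) started higher and had a smaller fold change. It had 16.5, 19.1 and 17.4 TPM in M0 and 66.7, 65.5 and 82.5 TPM in M1. This was a 4.06-fold rise, from 17.6 ± 1.32 to 71.6 ± 9.49 TPM (log2 change 1.96, SE 0.09, limma adjusted p = 9.5e-09). The GENCODE transcript used for Slfn9 has 5 exons and 5769 bases, against 3849 bases in the TPM table.

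The order of this pair turned over between the groups. The ratio of Slfn8 to Slfn9 was 0.412 ± 0.0070 in M0 and 1.72 ± 0.0994 in M1, with every M0 sample at 0.407 to 0.420 and every M1 sample at 1.61 to 1.79. The two-sided exact permutation test again gave its smallest possible p, 0.10. Of the 50-base stretches of Slfn8, 7.68% also occur in Slfn9 and 8.14% in Slfn10-ps, so reads may be shared among the 3. M1 replicate 3 had the highest level of both genes, 0.17 above its group mates for Slfn8 and 0.32 for Slfn9 on the log2 scale. The part that its difference by transcript length plays in these values was not tested. Without that sample, the log2 changes were still called, and that of Slfn9 was 1.85. The level of Slfn8 depends on the transcript taken as its length: 3077 bases in the TPM table and 4000 in the authors' other table, which would put it at 94.4 TPM in M1, still above Slfn9.

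**Figure D2:**
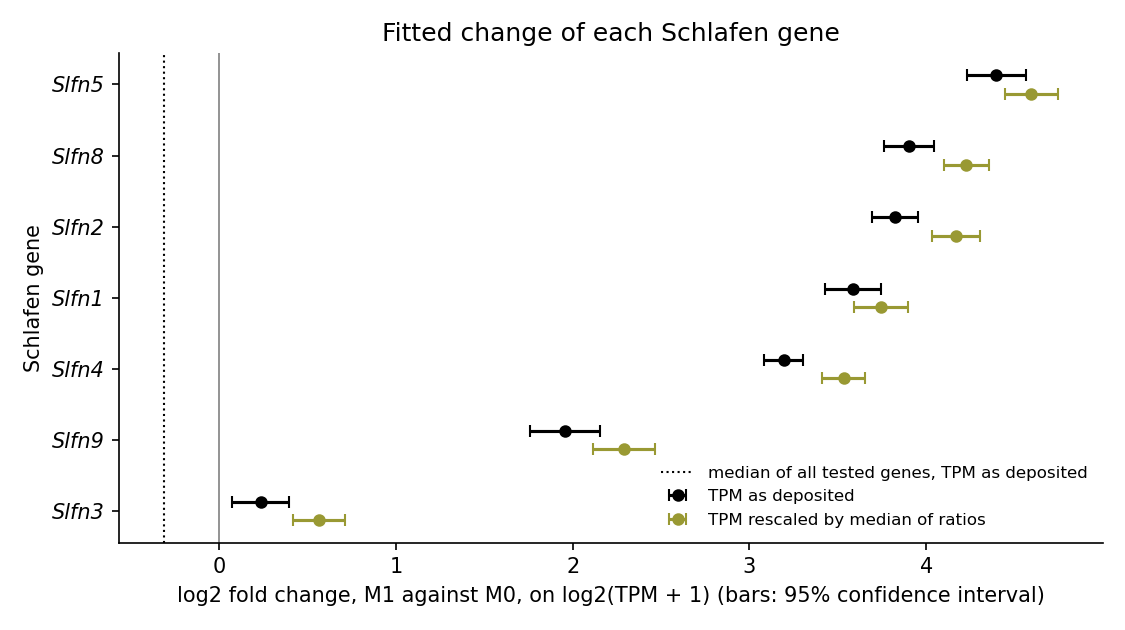
Fitted log2 fold change of each Schlafen gene, M1 against M0, with its 95% confidence interval, for TPM as deposited and after rescaling by median of ratios; the dotted line is the median of all tested genes (-0.31). Slfn5 is highest at 4.40 and Slfn3 lowest at 0.24, and rescaling moves all 7 to the right.

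In M0 the order of mean levels was Slfn2, Slfn4, Slfn3, Slfn9, Slfn8, Slfn5 and Slfn1. Neighbours in that order had separate ranges except Slfn3 and Slfn9, at 18.4 and 17.6 TPM. In M1 the order was Slfn2, Slfn4, Slfn8, Slfn9, Slfn5, Slfn3 and Slfn1, and no neighbours overlapped. Slfn3 thus went down by 3 places, and Slfn8 went up by 2. These levels are per length, so they compare transcripts and not reads.

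Summed over the 7 genes, the level went from 123 ± 7.61 to 1263 ± 28.1 TPM, a 10.2-fold difference. The 3 M0 samples had 118, 132 and 120 TPM and the 3 M1 samples 1295, 1251 and 1243 TPM. The groups lay far apart (two-sided exact permutation p = 0.10, the smallest possible). The family took up 0.022% of the deposited TPM in M0 and 0.221% in M1.

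The make-up of the sum changed as well. Slfn2 went from 42.0% ± 0.722 to 59.1% ± 1.496 of the summed TPM and Slfn8 from 5.88% ± 0.0252 to 9.72% ± 0.834. Slfn3 went from 14.9% ± 0.676 to 1.73% ± 0.103 and Slfn9 from 14.3% ± 0.290 to 5.68% ± 0.834. Both thus took a smaller share of a larger sum. Slfn4 had 22.7% ± 1.65 in M0 and 20.9% ± 0.676 in M1, and its ranges overlapped (exact permutation p = 0.20). The shares of the other 6 members did not overlap between groups. Each had an exact permutation p of 0.10, and 0.12 after Benjamini-Hochberg adjustment over the 7 members. None thus passed 0.05, in a design that cannot reach it. The shares of a sample add up to the whole, so these 6 are not separate results. Slfn1 and Slfn5 had mean shares of 0% and 0.196% in M0, which left little room to fall.

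**Figure D3:**
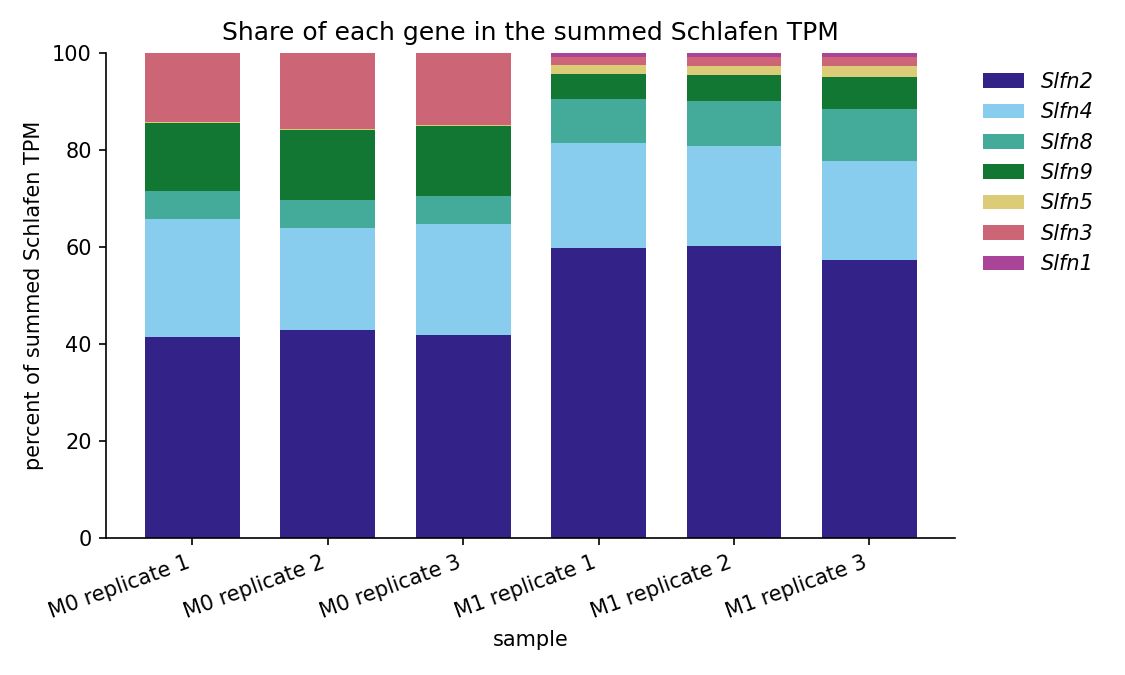
Percent of the summed Schlafen TPM that each of the 7 genes made up in each of the 6 samples. Slfn2 takes 41.4% to 42.8% in the M0 samples and 57.4% to 60.2% in the M1 samples, while Slfn3 shrinks from between 14.3% and 15.6% to between 1.63% and 1.83%.

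Other genes of the family that the table held were Slfn10-ps, Slfn5os, Slfn14 and Slfnl1. Slfn10-ps, which lies between Slfn8 and Slfn2, rose from 8.37 ± 0.591 to 19.7 ± 1.73 TPM (log2 change 1.14, SE 0.08, limma adjusted p = 7.8e-08). Of its 50-base stretches, 13.5% also occur in Slfn9 and 11.8% in Slfn8. Slfn5os, a noncoding RNA on the strand opposite to Slfn5, had 1 read over the 3 M0 libraries and 118 over the 3 M1 libraries, with 4.21 ± 0.328 TPM in M1. Whether reads were counted by strand is unknown from the sources used here, so its reads cannot be told apart from those of Slfn5 where the 2 overlap. Slfn14, known as a ribonuclease of reticulocytes and platelets, had 1 read in each group and Slfnl1 had 1 read in M0 and 0 in M1. Slfn14 is also on chromosome 11, beyond Slfn3, whereas Slfnl1 is on chromosome 4.

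Beyond the 7 members, 34 genes lay in or within 500 kb of the cluster, and 22 of them were tested. Of these, 11 were higher and 3 lower in M1, against 18.7% higher and 61.5% lower among all tested genes, with a median log2 change of 0.19. The 11 higher genes were 2 before the cluster, 2 inside it (Slfn5os and Slfn10-ps) and 7 after it. Among them, Slfn5os and Heatr9, which lies after the cluster, passed the expression filter only through the M1 samples. These 2 genes had to differ to be tested. After rescaling 15 of the 22 tested genes were higher and 2 lower, against 36.9% and 36.6% of all. The nearest tested gene after the cluster, AI662270, begins 8422 bases beyond Slfn3. Its level of 174 ± 3.75 TPM in M0 stood against 179.8 ± 7.46 TPM in M1, which limma did not call (log2 change 0.05, adjusted p = 0.37), while rescaled values gave a called change of 0.39.

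The nearest called gene on the side of Slfn5 was Nle1, a ribosome biogenesis factor, 43707 bases away, which rose from 21.3 ± 0.456 to 27.1 ± 1.74 TPM (log2 change 0.33). On the side of Slfn3 it was Taf15, an RNA-binding protein, 257954 bases away, which rose from 82.3 ± 2.97 to 117 ± 3.89 TPM (log2 change 0.50). Both changes are smaller than those of 6 of the members. Further out on the side of Slfn5, Rffl had a log2 change of 1.10. Beyond Taf15 lies the CC chemokine cluster, where Ccl5 had a log2 change of 7.67. Ccl3, Ccl4 and Ccl9 also rose there (4.18, 3.18 and 1.08), as did Wfdc17 beyond them (2.35), while Ccl6 fell (-0.52). Heatr9, Rffl, Wfdc17 and these chemokine genes were named after their values were seen.

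**Figure D4:**
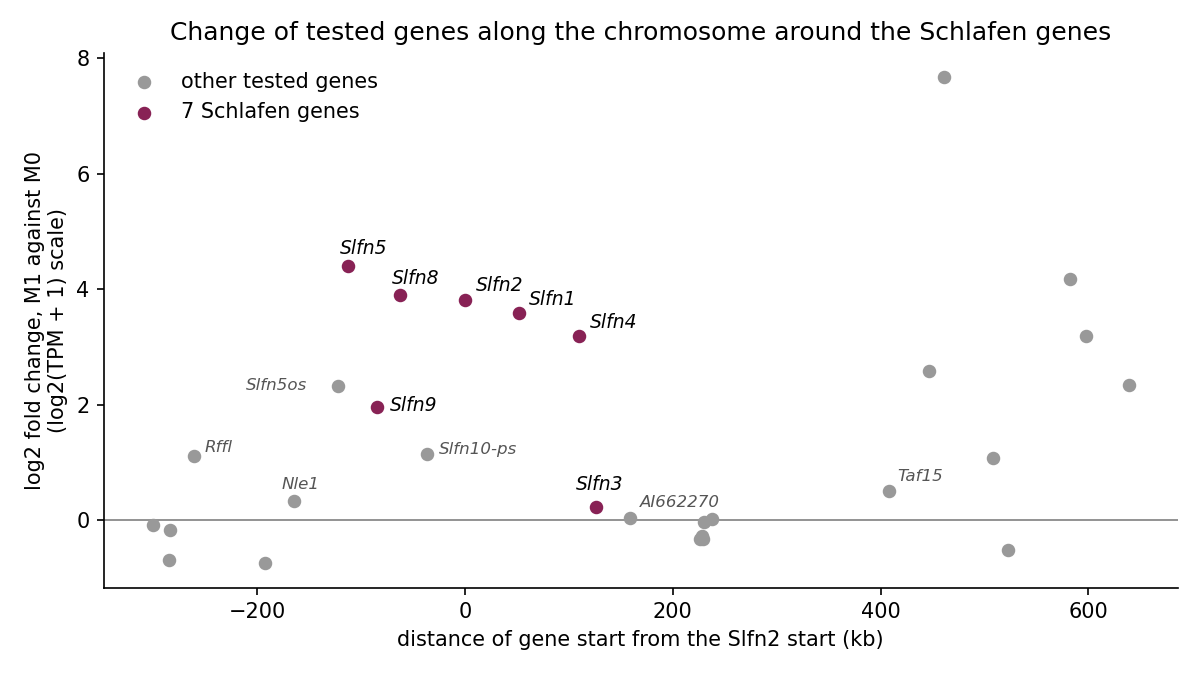
Log2 fold change, M1 against M0 on the log2(TPM + 1) scale, of tested genes by the distance of their start from that of Slfn2 in kb; the 7 Schlafen genes are coloured. Slfn3 lies at 0.24 and the other 6 members at 1.96 to 4.40, AI662270 just beyond Slfn3 lies at 0.05, and Ccl5 is the highest point, at 7.67.

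Of 17 genes of the interferon and TLR4 signalling chain, all 17 were tested, 11 rose and 6 fell, with a median log2 change of 0.40. Over all tested genes 18.7% were higher and 61.5% lower. After rescaling 11 were higher and 3 lower, against 36.9% and 36.6% of all. Among those of the interferon-γ path 5 rose and 1 fell. Jak2, a kinase bound to the receptor, rose by 3.31 on the log2 scale and the receptor chain Ifngr1 fell from 24.2 ± 0.378 to 11.6 ± 0.121 TPM. In the type I interferon path 5 rose and 1, the receptor chain Ifnar1, fell by 0.31 on the log2 scale but was not called after rescaling (0.02). Its factors Stat2 and Irf9 rose by 2.94 and 0.91 on the log2 scale. Ifnb1, which encodes interferon-β, had 1 read over the M0 libraries and 91 over the M1 libraries. Ifnb1 passed the expression filter only through the M1 samples, so it had to differ to be tested and counted here. In the path from TLR4 to type I interferon, Irf7 rose and 4 fell, with Tlr4 itself going from 26.6 ± 1.68 to 7.18 ± 0.425 TPM. The median log2 change of these 5 genes, -0.29, lay near the -0.31 of all tested genes. Of the 4 lower ones, Ticam1 and Irf3 were not called after rescaling, where their signs turned.

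A list of 6 genes that cut, guard or modify RNA was used because Slfn2 guards transfer RNA: 1 rose, 4 fell and 1 was not called, with a median log2 change of -0.35. Over all tested genes 61.5% were lower and the median was -0.31, so the list lay near the background. After rescaling 2 were higher and 2 lower, and the sign of Nsun2, a transfer RNA methyltransferase, turned. Ang, which encodes angiogenin, the ribonuclease that Slfn2 opposes, fell from 24.6 ± 0.440 to 12.7 ± 0.248 TPM (log2 change -0.90, and -0.57 after rescaling). Its inhibitor Rnh1 fell from 312 ± 5.75 to 232 ± 4.90 TPM (log2 change -0.42), but its change of -0.08 after rescaling was not called. Trdmt1, a transfer RNA methyltransferase like Nsun2, rose from 4.18 ± 0.153 to 5.05 ± 0.429 TPM (log2 change 0.22, limma adjusted p = 0.019). Trdmt1 lost its call without M0 replicate 2, M0 replicate 3 or M1 replicate 1.

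The genes most like the top member in level over the 6 libraries were found by Euclidean distance in log2(TPM + 1), a description with no test. For Slfn2 they were Tnfaip2 (distance 0.95), Nampt (1.04) and Nfkbia (1.14). Tnfaip2 stood at 72.0 ± 2.42 TPM in M0 and at 883 ± 67.6 TPM in M1. For Slfn5, the member with the largest fitted change, they were Pstpip2 (0.32), Gbp11 (0.54) and Serpina3i (0.57). Pstpip2 had 0.389 ± 0.0775 and 23.8 ± 1.80 TPM. All 6 libraries fall into 2 groups, so any gene with like levels in the 2 groups comes out close.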

How the data were processed

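RNA of 6 samples was measured. HOMER 4.11.1, STAR 2.7.5a, DESeq2, bcl2fastq and the build mm10 appear in the submitters' processing notes without their roles. The authors deposited TPM per gene and library, per the file headers, for 25124 genes. A second table, per the file headers, holds log2 values (transform not stated), log2 fold changes, p-values and adjusted p-values for 24421 genes. Reads were recovered from TPM times transcript length, whole within 0.1 in every library, and cover counting error only. limma 3.58.1 (R 4.3.3, trend and robust) compared the 2 groups on log2(TPM + 1), with no covariate (4 residual degrees of freedom). Only genes reaching 1 TPM in 3 or more samples were tested, and they were called at an adjusted p under 0.05. Exact permutation tests used scipy 1.17.1, and promoter identity used Biopython 1.88. Named genes were the 7 members, other Slfn symbols, the nearest called neighbours, list genes by role and the 3 genes closest to each of 2 members. Heatr9, Rffl, Wfdc17 and the chemokine neighbours were added after their values were seen. Members and lists were chosen with earlier results of these data known. The Slfn4 to Slfn3 and Slfn8 to Slfn9 ratios and the motifs were chosen after values or sequences were seen. Some list genes are not reported here by name, nor is 1 searched motif, which matched none of the 7 windows.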

Additional observations from a re-analysis of the deposited data

How the results depend on the processing

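All 7 Schlafen genes were called higher under each of the 12 other fits: a pseudocount of 0.1, no filter, a filter at 5 TPM, rescaling, the deposited log2 values, the replicate block and leaving out each sample. The log2 change of Slfn3 ranged from 0.18 to 0.58 over them, and its largest adjusted p was 0.046 (limma). The replicate block, on numbers that do not pair the samples (same-number correlations of deviations 0.071, -0.076 and 0.037, and samples did not all correlate best with their own number), left 7 members called higher and gave a paired exact permutation p of 0.25 for the summed level, the smallest that 3 pairs allow. The deposited log2 values left 1 neighbour lower. Rescaling and the deposited log2 values each left 3 signalling genes lower, and 2 of the transfer RNA list higher and 2 lower. A filter at 5 TPM left 0 of that list higher, since Trdmt1 was then not tested. Leaving out samples gave 0 to 1 higher there. Without Slfn2 the difference in the share of Slfn4 turned from -1.82 to 12.01 percentage points. By construction, the share is then of a sum without Slfn2. The other transcript length, tried after seeing the data, put Slfn8 at 5.59 TPM in M0 and 94.4 in M1. Depth limits Slfn1 and Slfn5 in M0, at 0 and 65 reads.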
